A study of Mus musculus with 8 samples.

Results

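The genes described here encode the proteins of the cytosolic ribosome, measured by RNA-seq in 4 mouse mammary carcinoma cell lines. They were chosen by name alone: protein-coding genes whose symbol begins with Rpl (large subunit) or Rps (small subunit) followed by a digit, together with Rpsa, Rplp0, Rplp1 and Rplp2, and without the Rps6k kinases and the pseudogenes. That rule matched 86 of the 53379 genes in the count files. One of them, Rps19bp1, encodes a protein that binds RPS19 and is not itself a ribosomal protein, so 85 genes were kept. Of these, 77 are the canonical genes (46 of the large and 31 of the small subunit) and 8 are paralogues or copies of them: Rpl3l, Rpl7l1, Rpl10l, Rpl22l1, Rpl36al, Rpl39l, Rps27l and Rps27rt.

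Each cytosolic ribosome holds a single copy of almost every ribosomal protein, bound to ribosomal RNA in a small subunit that reads the mRNA and a large subunit that joins the amino acids. The mRNAs of these genes share a start made of pyrimidines, the TOP motif (terminal oligopyrimidine), through which mTOR signalling and the protein LARP1 control their translation together. When ribosome assembly is disturbed, RPL5 and RPL11, which travel with the 5S ribosomal RNA, bind MDM2 and stabilise p53. Mammalian genomes carry many processed pseudogenes of ribosomal protein genes, and a few working paralogues whose use differs between tissues.

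The 4 lines come from mammary tumours of C57BL/6 mice and were grown as adherent monolayers in DMEM/F12 with serum. The lines 687g and Epcam hi were derived from the MMTV-PyMT-Snail-IRES-YFP reporter model, and pB3 and pB2 from the MMTV-PyMT model. All 4 lines thus share polyoma middle T antigen under the mouse mammary tumour virus promoter, which drives it in mammary epithelium. The series set out to profile breast cancer models of the epithelial-mesenchymal transition. Each line has 2 libraries. Nothing in the labels says that these came from separate cultures, so every p-value below measures the spread between these libraries, which may be technical. Each group is 1 cell line, so a difference between groups cannot be told apart from any other difference between those lines.

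Library totals ran from 12442730 to 19149916 counts. Of 7 epithelial marker genes, 7 were lower in 687g than in Epcam hi. Their summed level was 1280 to 1420 counts per 1000000 (CPM) in 687g, 5790 to 5800 in Epcam hi, 2850 to 3050 in pB3 and 1200 to 1260 in pB2. In 687g, Krt8 (mean 226 CPM) and Krt18 (1113) made up most of the sum, against 99.2 and 212 in pB2. The other markers had lower means in 687g than in pB2. They were 3.77 against 565 CPM for Epcam, 1.32 against 155 for Cdh1 and 0.916 against 79.3 for Cldn3. Cldn7 had 0.614 against 115 and Krt19 0.754 against 6.9. Summed CPM of 9 leukocyte markers was 2.75 to 3.74 in 687g, 14.5 to 36.4 in Epcam hi, 1.34 to 1.81 in pB3 and 0.887 to 1.43 in pB2. Endothelial markers (6 genes) stayed under 1 CPM in every library. Fibroblast markers (7 genes) summed to 15.8 to 21.2 CPM in 687g, 2.41 to 2.81 in Epcam hi, 15.1 to 17.8 in pB3 and 63.5 to 84.8 in pB2. Adipocyte markers (4 genes) summed to 9.70 to 16.3 CPM in 687g, 0.281 to 0.492 in Epcam hi, 0.194 to 0.336 in pB3 and 1.04 to 1.85 in pB2. The part of these differences in the results below was not tested.

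The 85 genes together took between 3.79% and 5.00% of all counts. Their share was 3.90% and 4.90% in the 687g libraries, 3.79% and 3.85% in Epcam hi, 5.00% and 4.87% in pB3, and 4.37% and 4.10% in pB2. The pB3 libraries lay above both Epcam hi and both pB2 libraries. The 687g libraries did not keep together: replicate 2 lay between the pB3 libraries, and replicate 1 between Epcam hi and pB2. An exact permutation test of the share over the 4 lines, on all 2520 assignments of libraries to lines, gave p = 0.181, where 0.00952 is the smallest this design allows, so a difference in the share beyond the spread of the replicates was not shown. Between single lines, 2 libraries against 2 cannot go below 0.333 in a two-sided exact test. Named ribosomal protein pseudogenes, of which 279 of 293 had at least 1 count, added 0.0512% to 0.105% of counts. The 0.105% was that of Epcam hi replicate 1, beside 0.0516% in Epcam hi replicate 2. The next highest was 0.0734% in 687g replicate 2.

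**Figure D1:**
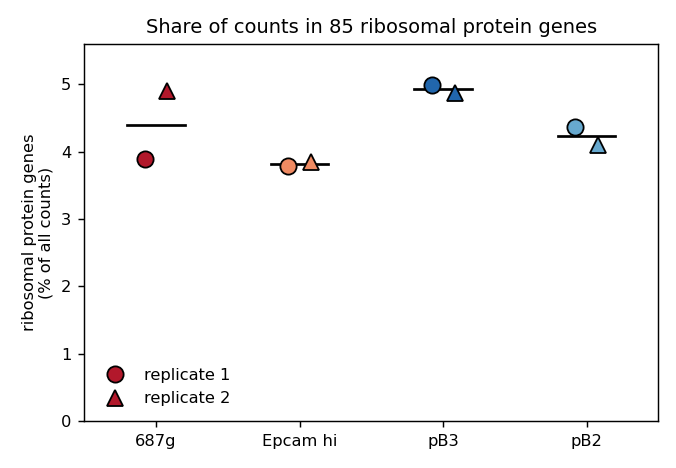
Share of all counts taken by the 85 cytosolic ribosomal protein genes (% of counts, y axis) in each library of the 4 lines. Circles are replicate 1, triangles replicate 2, and the black line is the mean of a line; 687g replicate 1 (3.90%) and replicate 2 (4.90%) are farther apart than the replicates of any other line.

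Within the family, levels spanned 3 orders of magnitude. Rps3, a small-subunit protein at the mRNA entry channel, alone took 16.9% of the family's counts. Rplp0 took 6.11%, Rpl8 5.87% and Rps9 5.85%. Per kilobase of the principal transcript, the mean level over the 8 libraries was 3880 CPM per kb for Rps3 and 3409 for Rps9, both near the top of the family. The lowest of the 77 canonical genes were Rpl24 at 2.01 CPM per kb, Rps29 at 2.96 and Rps6, the substrate of the S6 kinases, at 3.96. The median was 164 CPM per kb. As the cytosolic ribosome needs its proteins in equal number, the values were set beside how much of each transcript is shared with other genes.

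For each transcript, the share of 50-base stretches found in no other annotated gene was counted. It ran from 1.4% for Rps27 to 100% for the paralogues Rpl3l and Rpl39l. The 19 canonical genes under 20% unique had a median level of 28.5 CPM per kb, the 20 genes from 20% to 40% had 142, the 17 from 40% to 60% had 368, and the 21 above 60% had 1045. Across the 77 canonical genes, level per kilobase and unique share had a Spearman correlation of 0.51 with 50-base stretches and 0.59 with 75-base stretches. This describes genes of the same 8 libraries, which are not independent replicates. Both measures rest on the transcript chosen, which for some genes is long beside its coding part. That of Rps20 had 3706 bases, 357 of them coding, with 92.4% unique stretches and 137 CPM per kb. The effect of this choice was not tested. Exceptions to the correlation ran in both directions. Rps29 had 64.2% of its stretches unique and a level of 2.96 CPM per kb, and Rps16 had 58.4% and 4.58. Rps18 had 13.3% unique and 1069 CPM per kb, and Rps10 had 7.6% and 537. How reads that match several places were counted is not given in the sources used here, so levels of genes with near-identical copies are uncertain, and the comparisons between lines of those genes rest on the reads that were kept. Among the calls of pB3 against pB2, 13 of the 42 tested genes under 40% unique and 13 of the 40 above it were higher.

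**Figure D2:**
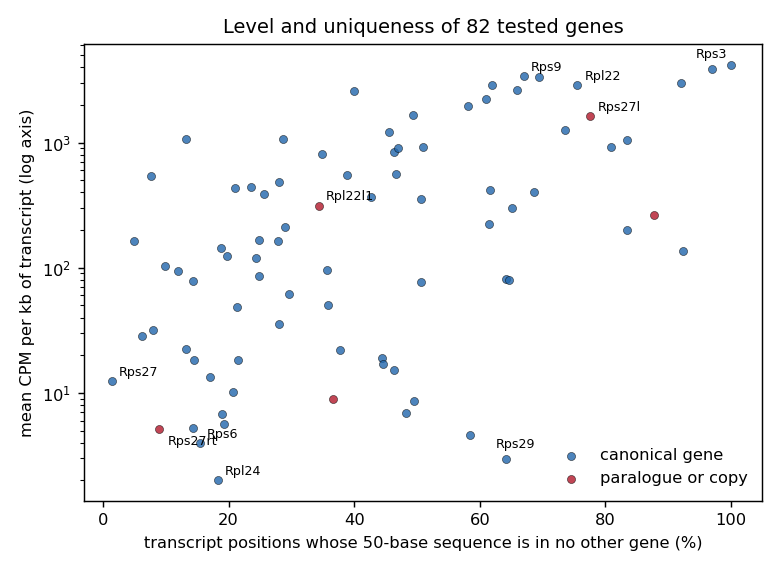
Mean level over the 8 libraries (CPM per kb of transcript, log axis) against the share of the transcript's 50-base stretches that occur in no other gene (%), for the 82 tested genes. Canonical genes are blue and paralogues or copies red; Rps3 and Rps9 stand in the upper right, and Rpl24 and Rps6 at the lower left.

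The start of the transcripts was available from RefSeq (build GRCm38.p6) for 65 of the 85 genes, as 300 bases running from 250 before to 50 after the annotated start. An unbroken run of at least 5 pyrimidines (C or T) through the start base was present in 29.2% of these windows, against 9.95% of the 27025 windows of all genes in the table. The letters CCGGAAG, the core that ETS-family factors bind, occurred on either strand in 38.5% of the windows, against 9.12% of all windows. Such a match is a description of the letters only. The stretches below run from 20 bases before the start to 15 bases after it, on the strand of the gene. They are shown for genes whose levels differed between the lines and, last, for 2 proteins best known from signalling and the stalk. Capitals mark the pyrimidine run through the start base. The windows are, in order, chr14:18270971-18271006 (minus strand), chr14:24490658-24490693 (plus), chr16:33056433-33056468 (plus), chr4:152325706-152325741 (plus), chr3:28805488-28805523 (plus), chrX:102189376-102189411 (minus), chrX:134585634-134585669 (plus), chr4:86857352-86857387 (minus) and chr7:141447631-141447666 (plus).
Rpl15: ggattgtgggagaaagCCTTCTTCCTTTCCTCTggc
Rps24: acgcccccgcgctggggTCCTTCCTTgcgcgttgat
Rpl35a: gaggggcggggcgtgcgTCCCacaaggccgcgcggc
Rpl22: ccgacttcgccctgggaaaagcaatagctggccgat
Rpl22l1: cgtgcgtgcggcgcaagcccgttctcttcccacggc
Rps4x: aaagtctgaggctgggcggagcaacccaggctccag
Rpl36a: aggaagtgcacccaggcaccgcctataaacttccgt
Rps6: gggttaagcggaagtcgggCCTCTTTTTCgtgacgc
Rplp2: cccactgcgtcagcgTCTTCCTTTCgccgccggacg
The run was 17 bases in Rpl15, 10 in Rps6 and in Rplp2 and 9 in Rps24. Rpl22, Rpl22l1, Rps4x and Rpl36a had none through the RefSeq start. Only the first RefSeq start of each gene was read, so a window without a run does not show that the mRNA lacks one. For Rps24 the stretch shown begins at 24490658, while the annotated gene begins at 24487125.

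Counts were compared between lines with edgeR's quasi-likelihood test over all 15890 genes that passed a filter on low counts, with Benjamini-Hochberg adjustment at 0.05. Of the 85 genes, 82 passed the filter; Rpl39l, Rpl3l and Rpl10l did not. Over the 4 lines, 33 of the 82 tested genes differed, or 40.2%, against 66.5% of all genes tested. Of these 33, 14 had their highest mean in 687g, 14 in pB3 and 5 in pB2, while 20 had their lowest in Epcam hi, 12 in pB2 and 1 in 687g. Among the 77 canonical genes, the line with the highest mean exceeded the line with the lowest by a median of 1.54-fold, from 1.17-fold to 3.22-fold, and 13 genes differed by more than 2-fold.

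**Figure D3:**
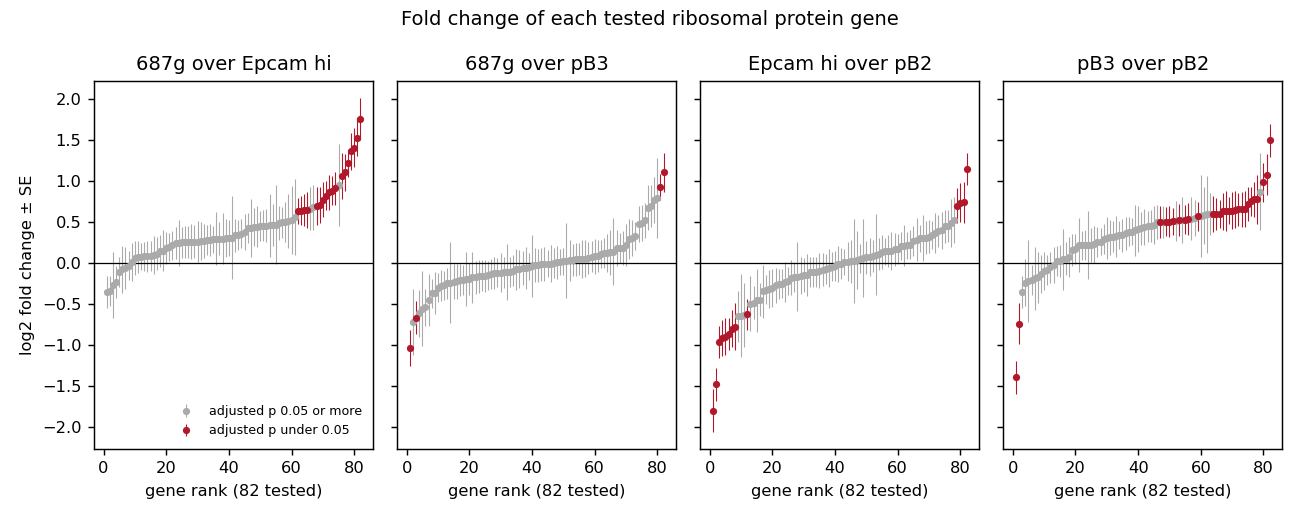
Log2 fold change with its standard error (y axis) for each of the 82 tested genes, ranked within each of the 4 comparisons (x axis). Red points have an adjusted p under 0.05; most points lie above 0 in 687g over Epcam hi (74 of 82) and in pB3 over pB2 (69 of 82), and they straddle 0 in the other comparisons.

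In the reporter model, most ribosomal protein genes were read at a higher level in 687g than in Epcam hi, and those called were all higher. The test called 18 of 82 higher and 0 lower, or 22.0% higher, against 18.4% higher and 18.0% lower among all genes tested. At an unadjusted p under 0.05 the count was 26 higher and 0 lower, and DESeq2 called 22 higher and 0 lower. The median log2 fold change of the 82 genes was 0.32, beside -0.03 for all genes tested. The 18 were Rpl22l1, Rps24, Rpl36a, Rpl15, Rps4x, Rpl5, Rps23, Rps25, Rpl27a, Rpl34, Rpl13a, Rpl35, Rpl17, Rps10, Rps15a, Rpl35a, Rps21 and Rps9. Both subunits were represented, by 10 of 49 large-subunit genes and 8 of 33 small-subunit genes.

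The replicates of 687g differed in the same genes: 80 of the 82 were higher in replicate 2 than in replicate 1, by a median of 0.43 on the log2 scale, beside a median of 0.00 over all genes tested. In Epcam hi, 57 of 82 were higher in replicate 2, by a median of 0.19. The median of the family in 687g against Epcam hi, 0.32 with all libraries, was 0.59 without 687g replicate 1 and 0.13 without 687g replicate 2. It was 0.25 without Epcam hi replicate 1 and 0.51 without Epcam hi replicate 2. When libraries were scaled to the summed counts of the 85 genes themselves, which sets the family's mean change aside, 10 were higher and 4 (Rpl4, Rpl7, Rpl8 and Rps2) lower.

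In the MMTV-PyMT model more ribosomal protein genes were called higher than lower in pB3 against pB2, while 54 of 82 were not called. The test called 26 of 82 higher and 2 lower, or 31.7% and 2.44%, against 21.6% higher and 23.2% lower among all genes tested. The median log2 fold change was 0.43, beside 0.02 for all genes. The 26 included Rplp0, the base of the stalk that recruits elongation factors, and Rpl5 and Rpl11, together with Rps9, Rps20, Rps23 and Rps4x. The 2 lower genes were Rpl21 and Rpl22l1, of which 1 remained without pB2 replicate 2 or pB3 replicate 2. The count of higher genes depended on the setting. It was 4 without pB2 replicate 1, 4 without pB2 replicate 2, 3 without pB3 replicate 1 and 7 without pB3 replicate 2. It was 7 higher and 3 lower with library totals in place of TMM scaling, which moved the median of all genes to -0.17. It was 50 higher and 3 lower in a fit of these 2 lines alone, and 2 higher (Rpl22 and Rps20) and 7 lower with libraries scaled to the family. The distance between the family's median and that of all genes was 0.41 with TMM and 0.40 with totals. A change of scaling moves every gene by nearly the same amount, so this distance cannot show whether the calls depend on the scaling.

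The comparisons 687g against Epcam hi and pB3 against pB2 use no library in common. Called higher in both were 10 genes, or 55.6% of the 18 and 38.5% of the 26. They were Rpl5, Rpl17, Rpl34, Rpl35, Rpl35a, Rps4x, Rps9, Rps10, Rps15a and Rps23. Over all genes tested, 1040 were called higher in both, or 35.5% of the 2928 higher in 687g than in Epcam hi and 30.3% of the 3427 higher in pB3 than in pB2. The 10 were 0 without pB2 replicate 1, pB2 replicate 2 or pB3 replicate 1, and 3 (Rpl17, Rpl34 and Rpl35a) without pB3 replicate 2. They were 6 without 687g replicate 2 or Epcam hi replicate 1, and 18 without 687g replicate 1. Library totals gave 2 (Rpl34 and Rps10) and scaling to the family 0. Rpl22l1 was the 1 gene called in opposite directions.

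Across the models few genes were called. In 687g against pB3, 2 genes were higher and 2 lower of 82 (2.44% each), against 12.8% higher and 12.9% lower among all genes tested, and the median was -0.03, beside 0.00 for all genes. Rpl36a and Rps4x were higher in 687g, and Rpl35a and Rpl41 lower. The direction of the median turned on the libraries of 687g: it was 0.18 without 687g replicate 1, with 59 of 83 genes above 0, and -0.29 without 687g replicate 2, with 13 of 83 above 0. Without 687g replicate 1, 7 genes were called higher and 1 lower. Without pB3 replicate 1, 1 was higher and 1 lower, and without pB3 replicate 2, 1 was lower. Scaling to the family gave 3 higher and 1 lower.

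In Epcam hi against pB2, 4 genes were higher and 9 lower of 82 (4.88% and 11.0%), against 25.8% higher and 25.6% lower among all genes tested. The median of the family was -0.01, beside 0.06 for all genes, and ran from -0.19 without Epcam hi replicate 2 to 0.02 without Epcam hi replicate 1. Rpl22, Rps20, Rpl10a and Rps12 were higher in Epcam hi. Rpl22l1, Rpl21, Rps21, Rpl35a, Rpl15, Rpl41, Rps24, Rpl27 and Rpl37a were lower. Without Epcam hi replicate 1, 7 genes were higher, and without Epcam hi replicate 2, 2 were higher and 17 lower. Without either library of pB2, 1 gene was higher.

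Rpl22 was lowest in pB2, while its paralogue Rpl22l1 was lowest in Epcam hi and overlapped between pB2 and 687g. Both encode a protein of the outer face of the large subunit. Mice without Rpl22 are viable, and mouse RPL22 is known to hold down the level of Rpl22l1 mRNA. The part of this control in the levels below was not tested. Rpl22 (ENSMUSG00000028936, chr4:152325742-152334071, plus strand) stood at 1363 and 1785 CPM in 687g, 1276 and 1573 in Epcam hi, 1926 and 1711 in pB3, and 638 and 651 in pB2. Every library of the other 3 lines was above both pB2 libraries. The log2 fold change was 1.50 ± 0.20 (SE) in pB3 against pB2 (edgeR adjusted p = 2.8e-05) and 1.14 ± 0.20 in Epcam hi against pB2 (edgeR adjusted p = 0.000244). Both calls held under every alternative run. In 687g against Epcam hi, Rpl22 was not called (0.14 ± 0.19, edgeR adjusted p = 0.601).

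Rpl22l1 (ENSMUSG00000039221, chr3:28805436-28807424, plus strand) stood at 189 and 281 CPM in 687g, 54.2 and 84.7 in Epcam hi, 163 and 128 in pB3, and 207 and 279 in pB2. The Epcam hi libraries were below all others, and the libraries of 687g and pB2 overlapped. Its log2 fold change was 1.76 ± 0.26 in 687g against Epcam hi (edgeR adjusted p = 0.000116) and -1.81 ± 0.26 in Epcam hi against pB2 (edgeR adjusted p = 5.61e-05), and both calls held under every alternative. In pB3 against pB2 it was -0.74 ± 0.25 (edgeR adjusted p = 0.0289), a call that was lost without pB2 replicate 2 (adjusted p = 0.269) or pB3 replicate 2 (adjusted p = 0.212). For every 100 reads of Rpl22 there were 13.9 and 15.7 reads of Rpl22l1 in 687g, 4.25 and 5.39 in Epcam hi, 8.46 and 7.48 in pB3, and 32.4 and 42.9 in pB2. The 4 lines did not overlap in this ratio.

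**Figure D4:**
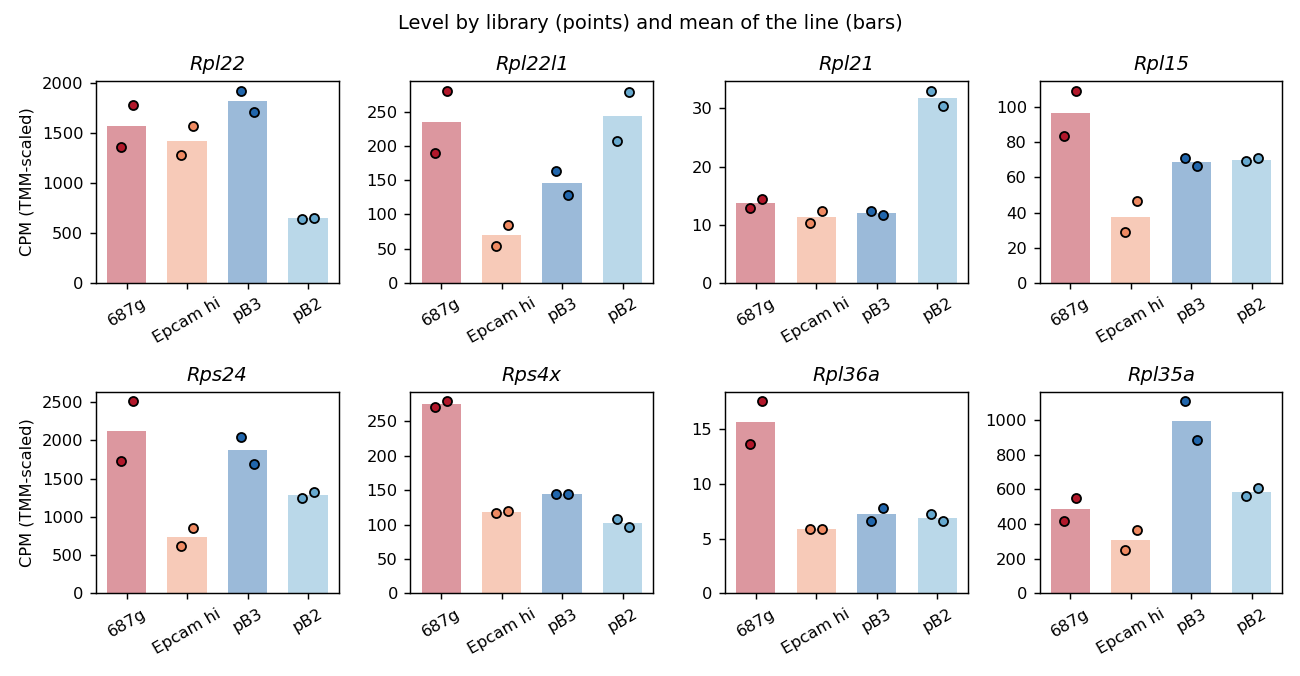
Level (CPM with TMM scaling, y axis) of 8 ribosomal protein genes in the 2 libraries of each line (points) and their mean (bars). Rpl22 is lowest and Rpl21 highest in pB2, Rps4x and Rpl36a are highest in 687g, and Rpl22l1, Rpl15 and Rps24 are lowest in Epcam hi.

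Rps27l, whose product resembles RPS27 and whose gene is a known p53 target, far outran its parent in reads. Rps27l had 7812 to 18196 reads per library and Rps27 had 42 to 94. Rps27l stood at 716 and 968 CPM in 687g, 549 and 850 in Epcam hi, 880 and 749 in pB3, and 784 and 964 in pB2. No comparison between lines was called for it, and the ranges of all 4 lines overlapped. Rps27rt, an intronless copy of Rps27, had 17 to 49 reads per library.

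The coding sequences show how far these 3 genes are alike. Over their 252 coding bases, Rps27rt is identical to Rps27, and Rps27l matches Rps27 at 192 bases (76.2%). The first 90 coding bases follow, 5′ to 3′ from the start codon, from the GENCODE M21 transcripts, with capitals at bases that differ from Rps27. Rps27 lies at chr3:90212522-90213651 (minus strand), Rps27rt at chr9:114982366-114982739 (minus strand) and Rps27l at chr9:66946086-66949516 (plus strand).
Rps27: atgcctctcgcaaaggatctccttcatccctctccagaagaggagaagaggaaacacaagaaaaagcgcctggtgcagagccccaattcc
Rps27rt: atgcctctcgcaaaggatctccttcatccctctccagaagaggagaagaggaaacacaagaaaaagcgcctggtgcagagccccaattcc
Rps27l: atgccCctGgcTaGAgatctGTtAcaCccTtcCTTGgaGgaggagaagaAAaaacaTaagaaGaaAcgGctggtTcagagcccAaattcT
In this stretch Rps27rt differs at 0 bases and Rps27l at 24. Of the 50-base stretches of the whole transcripts, 1.4% were unique for Rps27, 8.9% for Rps27rt and 77.6% for Rps27l. The low counts of Rps27 and Rps27rt are uncertain for that reason.

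The other paralogues were at low or even levels. Rpl7l1, which acts in the nucleolus during assembly of the large subunit, stood between 279 and 391 CPM in all libraries and was called in no comparison. Its parent Rpl7 stood between 524 and 757 CPM and was not called either. Rpl36al stood between 2.67 and 6.51 CPM, with no call. Rpl3l, a heart and muscle form of Rpl3, had 0 to 4 reads per library. Rpl10l, a testis retrogene of Rpl10, had 36 reads in Epcam hi replicate 1, 3 in Epcam hi replicate 2 and 0 to 2 in every other library. Rpl39l, a testis-enriched form of Rpl39, had 1 read in each 687g library, 1 in Epcam hi replicate 1 and 0 in the other 5 libraries. The limit that 3 reads set over the 2 libraries of pB3 was 0.0988 CPM, and over those of pB2 0.0926 CPM. Its parent Rpl39 stood at 136 and 231 CPM in 687g, 90.3 and 139 in Epcam hi, 127 and 102 in pB3, and 64.3 and 95.3 in pB2. It differed over the 4 lines (edgeR adjusted p = 0.012), with no single comparison called.

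Rpl21 (ENSMUSG00000041453, chr5:146832890-146837032, plus strand) encodes a large-subunit protein and was high in pB2 alone. It stood at 12.9 and 14.5 CPM in 687g, 10.3 and 12.4 in Epcam hi, 12.4 and 11.7 in pB3, and 33.1 and 30.5 in pB2. Both pB2 libraries were above all 6 others. Among these, both 687g libraries lay above those of Epcam hi and pB3, which overlapped. Its log2 fold change was -1.48 ± 0.20 in Epcam hi against pB2 (edgeR adjusted p = 3.4e-05) and -1.40 ± 0.20 in pB3 against pB2 (edgeR adjusted p = 6.7e-05), and both held under every alternative. Rpl21 shares 50-base stretches with 78 annotated pseudogenes and has 44.5% unique stretches, so its level is uncertain.

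Rps4x and Rpl36a, both on the X chromosome, were high in 687g. Rps4x (chrX:102184941-102189394, minus strand) encodes a small-subunit protein. It stood at 272 and 279 CPM in 687g, 117 and 120 in Epcam hi, 145 and 145 in pB3, and 108 and 96.5 in pB2. Both 687g libraries were above all others. The log2 fold change was 1.22 ± 0.16 in 687g against Epcam hi (edgeR adjusted p = 4.9e-05) and 0.93 ± 0.16 in 687g against pB3 (edgeR adjusted p = 0.000737), and both held under every alternative. A further call, in pB3 against pB2 (0.51 ± 0.16, edgeR adjusted p = 0.0212), was lost without any 1 of those 4 libraries (adjusted p from 0.0744 to 0.198), with library totals (0.125), no filter on low counts (0.0517) or scaling to the family (0.718). Rpl36a (chrX:134585654-134588062, plus strand), a large-subunit protein near the exit site for tRNA, stood at 13.7 and 17.5 CPM in 687g, 5.83 and 5.90 in Epcam hi, 6.65 and 7.83 in pB3, and 7.25 and 6.57 in pB2. It was 1.41 ± 0.24 higher in 687g than in Epcam hi on the log2 scale (edgeR adjusted p = 0.000396), a call that every alternative kept. It was 1.10 ± 0.24 higher in 687g than in pB3 (edgeR adjusted p = 0.00329), a call lost without pB3 replicate 1 (adjusted p = 0.0726). Rpl36a has 14.5% unique stretches and its copy Rpl36al matches it at 87.7% of coding bases.

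Rpl15 and Rps24, both on the proximal part of chromosome 14, were lowest in Epcam hi. Rpl15 (chr14:18267823-18271391, minus strand), a large-subunit protein, stood at 83.7 and 109 CPM in 687g, 28.7 and 46.3 in Epcam hi, 71.1 and 66.8 in pB3, and 69.1 and 71.1 in pB2. Both Epcam hi libraries were below all others. It was 1.36 ± 0.23 higher in 687g than in Epcam hi on the log2 scale (edgeR adjusted p = 0.000325), and its fold change in Epcam hi against pB2 was -0.90 ± 0.23 (edgeR adjusted p = 0.0044). Rps24 (chr14:24487125-24496959, plus strand), a small-subunit protein mutated in human Diamond-Blackfan anaemia, stood at 1728 and 2508 CPM in 687g, 619 and 849 in Epcam hi, 2041 and 1694 in pB3, and 1240 and 1321 in pB2. The Epcam hi libraries were again below all others, and pB2 lay between them and the rest. It was 1.53 ± 0.23 higher in 687g than in Epcam hi (edgeR adjusted p = 0.00011). In Epcam hi against pB2 its fold change was -0.80 ± 0.22 (edgeR adjusted p = 0.00808), a call lost without Epcam hi replicate 1 (adjusted p = 0.0606).

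Rpl35a, a large-subunit protein also mutated in that anaemia, ordered the lines otherwise. It stood at 419 and 551 CPM in 687g, 253 and 366 in Epcam hi, 1108 and 886 in pB3, and 560 and 606 in pB2. No line overlapped another, although 687g replicate 2 lay close to pB2. Its log2 fold change was -1.04 ± 0.22 in 687g against pB3 (edgeR adjusted p = 0.00277) and -0.91 ± 0.22 in Epcam hi against pB2 (edgeR adjusted p = 0.00316), and both held under every alternative. It was also called in 687g against Epcam hi (0.65) and in pB3 against pB2 (0.78). The first of these was lost without 687g replicate 2 (adjusted p = 0.186) or Epcam hi replicate 1 (adjusted p = 0.206), with library totals (0.0564), in a fit of these 2 lines alone (0.089) and with scaling to the family (0.193). The second was lost without pB2 replicate 1 (adjusted p = 0.0967), pB2 replicate 2 (0.0608) or pB3 replicate 1 (0.126), and with scaling to the family (0.144).

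Rpl41, the shortest ribosomal protein, stood at 295 and 348 CPM in 687g, 220 and 319 in Epcam hi, 523 and 499 in pB3, and 487 and 498 in pB2. The reporter-model libraries were all below those of the MMTV-PyMT model. The fold change in Epcam hi against pB2 was -0.87 ± 0.20 on the log2 scale (edgeR adjusted p = 0.00222), kept under every alternative. In 687g against pB3 it was -0.67 ± 0.20 (edgeR adjusted p = 0.0225), lost without 687g replicate 1 (adjusted p = 0.123), pB3 replicate 1 (0.162) or pB3 replicate 2 (0.115), and with scaling to the family (0.0516). Rps21, a small-subunit protein, averaged 512 ± 117 CPM in 687g, 327.5 ± 38.9 in Epcam hi, 499.7 ± 36.1 in pB3 and 638 ± 42.2 in pB2 (SD, n = 2 each). Its fold change in Epcam hi against pB2 was -0.96 ± 0.20 (edgeR adjusted p = 0.000997), kept under every alternative.

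Rps20 and Rpl10a were low in pB2. Rps20, a small-subunit protein, stood at 457 and 740 CPM in 687g, 398 and 602 in Epcam hi, 676 and 588 in pB3, and 271 and 328 in pB2. Rpl10a, which forms the L1 stalk, stood at 60.1 and 107 CPM in 687g, 68.1 and 67.6 in Epcam hi, 79.8 and 81.3 in pB3, and 38.4 and 43.0 in pB2. Both pB2 libraries were below all others for each gene. The log2 fold change in pB3 against pB2 was 1.08 ± 0.25 for Rps20 (edgeR adjusted p = 0.00298) and 0.98 ± 0.23 for Rpl10a (edgeR adjusted p = 0.00352). Both calls were lost without pB2 replicate 1 (adjusted p = 0.0543 for Rps20 and 0.0504 for Rpl10a), and that of Rpl10a with scaling to the family (0.0653). In Epcam hi against pB2 the 2 genes and Rps12 were also called, by 0.74 for Rps20, 0.74 for Rpl10a and 0.70 for Rps12. All 3 of those calls were lost without either pB2 library (adjusted p from 0.0767 to 0.195 for Rps20, 0.0793 to 0.141 for Rpl10a and 0.076 to 0.127 for Rps12) and without Epcam hi replicate 2 (0.294, 0.0504 and 0.199 in the same order).

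Among proteins with roles outside the ribosome, Rpl5 and Rpl13a were higher in 687g than in Epcam hi. Rpl5 stood at 70.1 and 96.8 CPM in 687g, 31.3 and 45.9 in Epcam hi, 72.6 and 62.8 in pB3, and 39.9 and 46.3 in pB2. Its log2 fold change was 1.11 ± 0.23 in 687g against Epcam hi (edgeR adjusted p = 0.0015), kept under every alternative, although 6.2% of its stretches are unique. In pB3 against pB2 it was 0.65 ± 0.22 (edgeR adjusted p = 0.0297), lost without any 1 of those 4 libraries (adjusted p from 0.0657 to 0.216), with library totals (0.11) or scaling to the family (0.467). Rpl13a, a part of the GAIT complex that silences inflammatory mRNAs in human myeloid cells, stood at 443 and 521 CPM in 687g, 287 and 259 in Epcam hi, 458 and 434 in pB3, and 366 and 319 in pB2. It was 0.82 ± 0.17 higher in 687g than in Epcam hi (edgeR adjusted p = 0.00208), again under every alternative. Rpl11, the partner of Rpl5 at MDM2, stood at 18.5 and 20.1 CPM in 687g, 18.9 and 17.8 in Epcam hi, 23.2 and 19.8 in pB3, and 15.6 and 14.0 in pB2. Its call in pB3 against pB2 (0.54 ± 0.20, edgeR adjusted p = 0.0396) was lost without any 1 of those 4 libraries, with adjusted p from 0.101 to 0.343, and in the DESeq2 test (adjusted p = 0.084). It was also lost with no filter (adjusted p = 0.0971), library totals (0.182), DESeq2 size factors (0.057), a replicate block (0.0566) or scaling to the family (0.715).

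The 3 stalk proteins, which bring elongation factors to the ribosome, gave 1 call. Rplp0 stood at 2782 and 2817 CPM in 687g, 2592 and 2710 in Epcam hi, 3081 and 3136 in pB3, and 2278 and 1912 in pB2. It was called in pB3 against pB2 (0.57 ± 0.18, edgeR adjusted p = 0.0168), a call lost without pB2 replicate 2 (adjusted p = 0.172), pB3 replicate 1 (0.0979) or pB3 replicate 2 (0.12), and with library totals (0.0715) or scaling to the family (0.385). Rplp1 stood between 1046 and 1661 CPM and Rplp2 between 272 and 414 CPM, and neither was called. Rps3, Rps19, Rpsa, Rpl3, Rpl10, Rpl38 and Rps6 were called in no comparison. Rps3 stood at 6658 and 8414 CPM in 687g, 6114 and 6315 in Epcam hi, 9318 and 8965 in pB3, and 7056 and 6377 in pB2. Rps6 stood between 1.73 and 4.66 CPM, with 15.4% of its stretches unique.

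Rps9, abundant per kilobase like Rps3, was called in pB3 against pB2. It stood at 2740 and 3119 CPM in 687g, 1889 and 1880 in Epcam hi, 3224 and 3135 in pB3, and 2416 and 2079 in pB2. The log2 fold change in pB3 against pB2 was 0.50 ± 0.18 (edgeR adjusted p = 0.0334). The call was lost without any 1 of those 4 libraries (adjusted p from 0.0641 to 0.239). It was also lost with library totals (adjusted p = 0.144), DESeq2 size factors (0.0586) or scaling to the family (0.605). Rps9 was also 0.64 ± 0.18 higher in 687g than in Epcam hi (edgeR adjusted p = 0.0121), a call lost in a fit of these 2 lines alone (adjusted p = 0.0913) and with libraries scaled to the family (0.0662).

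Rps23, the small-subunit protein at the decoding centre, was among the least read. It stood at 10.4 and 11.1 CPM in 687g, 4.08 and 6.12 in Epcam hi, 7.12 and 5.43 in pB3, and 3.25 and 4.03 in pB2. The 687g libraries were above all others. It was 1.06 ± 0.28 higher on the log2 scale in 687g than in Epcam hi (edgeR adjusted p = 0.00948), lost only with libraries scaled to the family (adjusted p = 0.0758). Its call in pB3 against pB2 (0.78 ± 0.30, edgeR adjusted p = 0.0467) was lost without any 1 of those 4 libraries (adjusted p from 0.0716 to 0.339). It was also lost in the DESeq2 test (adjusted p = 0.0944), with limma-voom (0.0702), library totals (0.129), DESeq2 size factors (0.0564), no filter on low counts (0.0584) or scaling to the family (0.402), and with a replicate block in which the pB2 numbers were crossed (0.0565).

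Several of the genes that differed most lay among neighbours that differed the same way. Over all other tested genes within 2 Mb of Rpl21, 35 in number, the median log2 fold change was -1.51 in pB3 against pB2, with 28 of them lower, and -1.41 in Epcam hi against pB2, with 26 lower. The 32 genes within 2 Mb of Rpl22 had a median of 0.83 in pB3 against pB2 (21 higher and 3 lower) and 1.48 in Epcam hi against pB2 (24 higher and 2 lower). Around Rps24, 10 genes had a median of 1.13 in 687g against Epcam hi and -1.03 in Epcam hi against pB2. Around Rpl36a, 27 genes had a median of 1.04 in 687g against Epcam hi (16 higher and 3 lower) and 0.52 in 687g against pB3. Around Rps4x, 49 genes had medians of 0.43 and 0.76 in the same comparisons.

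Rpl15 had 16 such neighbours, with a median of 0.52 in 687g against Epcam hi and 0.45 in Epcam hi against pB2, where Rpl15 itself was lower. The 12 neighbours of Rpl22l1 had a median of 0.05 in 687g against Epcam hi, and the 37 of Rpl35a had -0.05 in 687g against pB3. The 68 neighbours of Rpl38 had a median of -1.11 in pB3 against pB2, with 50 lower, and Rpl38 itself, a protein needed for the translation of Hox mRNAs in the mouse embryo, was not called (5.84 and 6.79 CPM in pB3, and 7.99 and 6.36 in pB2). The part of these stretches in the results for the genes they hold was not tested.

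**Figure D5:**
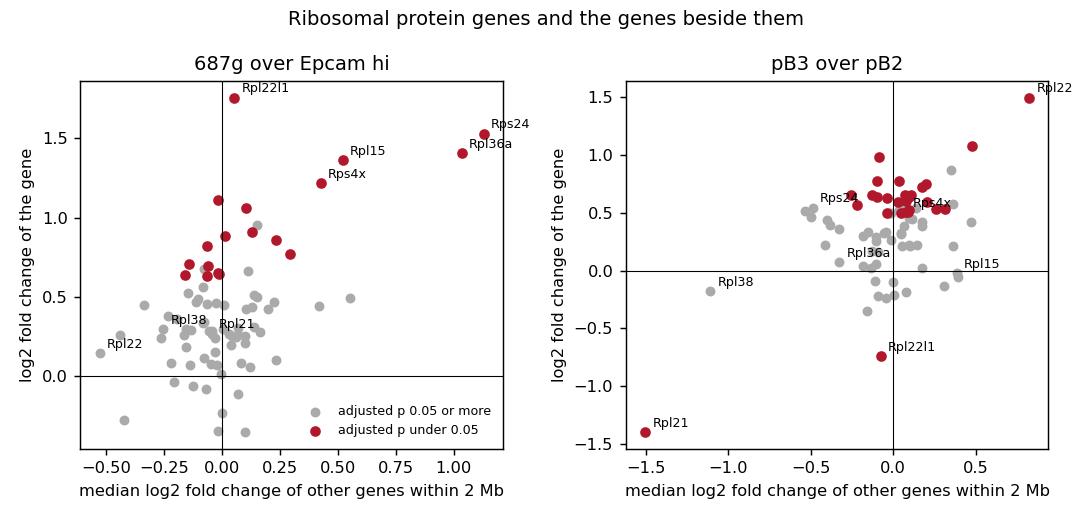
Log2 fold change of each tested ribosomal protein gene (y axis) against the median log2 fold change of the other tested genes within 2 Mb (x axis), for 687g over Epcam hi and for pB3 over pB2. Red points have an adjusted p under 0.05; Rps24 and Rpl36a stand with neighbour medians above 1 on the left, and Rpl21 with a neighbour median of -1.51 on the right, while Rpl22l1 lies near a neighbour median of 0 in both.

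The rest of the translation machinery was described by lists of genes. Among all genes tested, 18.4% were higher and 18.0% lower in 687g than in Epcam hi, 12.8% and 12.9% in 687g than in pB3, 25.8% and 25.6% in Epcam hi than in pB2, and 21.6% and 23.2% in pB3 than in pB2. Where a count of 0 is given for one direction, at most 1 gene of the list passed an unadjusted p under 0.05 in that direction and DESeq2 called at most 1. Of 18 translation factors and related genes with TOP mRNAs, 11 were higher (61.1%) and 0 lower in pB3 than in pB2 (median 0.59). In 687g against Epcam hi, 3 were higher (16.7%, no more than among all genes) and 0 lower (median 0.23). The elongation factor subunit Eef1g was 1.22 ± 0.17 higher on the log2 scale in pB3 than in pB2 (edgeR adjusted p = 6.07e-05), and the initiation factor subunit Eif3m 0.74 ± 0.18 higher in 687g than in Epcam hi (edgeR adjusted p = 0.00516). The count of 11 was 3 without pB2 replicate 1, 6 without pB2 replicate 2, 5 without pB3 replicate 1 and 6 without pB3 replicate 2. Of the ribosomal protein genes with other names, Fau and Rack1 were called by edgeR in 0 of the 4 comparisons, with 0 at an unadjusted p under 0.05 and 0 by DESeq2. Rack1, a scaffold on the small subunit, stood at 5329 and 6914 CPM in 687g, 5511 and 4740 in Epcam hi, 6108 and 6371 in pB3, and 5336 and 4033 in pB2.

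Of 8 host genes of small nucleolar RNAs, many of which also begin with pyrimidines, 2 were higher (25%) and 0 lower in 687g than in Epcam hi (median 0.52), and 4 were higher (50%) and 0 lower in pB3 than in pB2 (median 0.64). Zfas1 was 1.67 ± 0.23 higher in 687g than in Epcam hi (edgeR adjusted p = 6.46e-05), and Snhg1 was 1.11 ± 0.23 higher in pB3 than in pB2 (edgeR adjusted p = 0.00112). The count of 2 was 6 without 687g replicate 1, 5 without Epcam hi replicate 2, and 1 without 687g replicate 2 or Epcam hi replicate 1. Of 12 other initiation and termination factors, 0 were higher and 2 lower (16.7%) in 687g than in Epcam hi, and 5 were higher (41.7%) and 0 lower in pB3 than in pB2. The 2 were 4 without 687g replicate 1, and 1 without 687g replicate 2 or Epcam hi replicate 2. The 5 were 1 without pB2 replicate 1 or pB3 replicate 1, and 0 without pB2 replicate 2 or pB3 replicate 2. Eif6, which keeps the subunits apart, had a log2 fold change of -0.85 ± 0.18 in 687g against Epcam hi (edgeR adjusted p = 0.00209) and 0.74 ± 0.18 in pB3 against pB2 (edgeR adjusted p = 0.00407).

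Of 30 genes for ribosome assembly and RNA polymerase I, 0 were higher and 13 lower (43.3%) in 687g than in Epcam hi (median -0.29), and 17 were not called. In 687g against pB3, 0 were higher and 10 lower (33.3%; median -0.41), and 20 were not called. The 13 included Heatr1 (-1.13 ± 0.19, edgeR adjusted p = 0.000304) and Rrp9 (-1.05 ± 0.17, edgeR adjusted p = 0.00028), both of the complex that first processes the pre-ribosomal RNA. The 13 were 7 without 687g replicate 2 or Epcam hi replicate 2, and the 10 were 4 without 687g replicate 2 or either library of pB3. Between pB3 and pB2, 1 was higher and 3 lower in pB3 (median -0.05), and without any 1 of those 4 libraries 0 were higher and 1 lower. The largest of the lower differences was that of Ltv1, a small-subunit assembly factor (-1.01 ± 0.18, edgeR adjusted p = 0.000358).

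Mitochondrial ribosomal proteins are encoded by a separate set of nuclear genes, of which 77 of 78 were tested. Of the 77, 5 were higher (6.49%) and 27 lower (35.1%) in pB3 than in pB2 (median -0.31), beside 26 higher and 2 lower among the cytosolic genes. The 27 were 12 without pB2 replicate 1 or pB3 replicate 1 and 10 without pB3 replicate 2. The 5 were 3 without pB2 replicate 1, 1 without pB2 replicate 2, and 2 without either library of pB3. In Epcam hi against pB2, 4 were higher (5.19%) and 36 lower (46.8%; median -0.45). Without pB2 replicate 1, 0 were higher and 22 lower; without pB2 replicate 2, 0 were higher; without Epcam hi replicate 1, 1 was higher; and without Epcam hi replicate 2, 2 were higher. In 687g against Epcam hi, 10 were higher (13.0%) and 4 lower (5.19%), with a median of 0.03. The 10 were 5 without 687g replicate 2 or Epcam hi replicate 1, 17 without 687g replicate 1 and 19 without Epcam hi replicate 2. The 4 were 2 without 687g replicate 1. Mrps7 (-1.72 ± 0.19, edgeR adjusted p = 4.67e-06) and Mrpl58 (-1.55 ± 0.18, edgeR adjusted p = 7.81e-06) differed most among those called in pB3 against pB2.

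Of 15 growth-control genes tested, 1 was higher and 2 lower in 687g than in Epcam hi (6.67% and 13.3%), both shares below those of all genes. In pB3 against pB2, 6 were higher and 2 lower (40% and 13.3%). The first of these counts was 2 without 687g replicate 1, 3 without 687g replicate 2 and 5 without Epcam hi replicate 2, with 1 lower without Epcam hi replicate 1. Only 1 was lower in pB3 than in pB2 without pB2 replicate 1 or pB3 replicate 1. Myc, which drives ribosome synthesis, stood at 179 and 147 CPM in 687g, 304 and 247 in Epcam hi, 92.7 and 96.3 in pB3, and 38.8 and 54.2 in pB2. Its log2 fold change was -0.75 ± 0.20 in 687g against Epcam hi (edgeR adjusted p = 0.00942) and 1.02 ± 0.20 in pB3 against pB2 (edgeR adjusted p = 0.00101).

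Of 14 genes in the p53 list, 1 was higher (7.14%) and 9 lower (64.3%) in 687g than in Epcam hi (median -0.87). In Epcam hi against pB2, 11 were higher (78.6%) and 1 lower (median 1.85). In pB3 against pB2, 7 were higher (50%) and 1 lower. The 7 were 4 without pB2 replicate 1, 2 without pB2 replicate 2, and 3 without either library of pB3. Mdm2, the ligase that removes p53, stood at 146 and 149 CPM in 687g, 426 and 566 in Epcam hi, 130.2 and 132 in pB3, and 96.6 and 77.0 in pB2. Cdkn1a, the p53 target that halts the cell cycle, stood at 69.9 and 45.3 CPM in 687g, 135 and 170.2 in Epcam hi, 54.7 and 53.6 in pB3, and 16.0 and 15.1 in pB2. The Epcam hi libraries were above all others for both genes. Rps27l, named above as a p53 target, was called in no comparison. Trp53 itself stood between 61.3 and 98.9 CPM.

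The difference between the 2 model pairs was tested directly as (687g minus Epcam hi) minus (pB3 minus pB2). Of 82 genes, 7 had a higher and 1 a lower value (8.54% and 1.22%), against 18.2% higher and 19.5% lower among all genes tested. The 7 were Rpl22l1, Rpl21, Rpl15, Rpl36a, Rps21, Rps24 and Rps4x, and the 1 was Rpl22. The count of higher values was 4 without pB3 replicate 2 and 12 without Epcam hi replicate 2. The count of lower values was 2 without Epcam hi replicate 1 or replicate 2, and 3 without 687g replicate 2.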

How the data were processed

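RNA was sequenced from 4 cell lines, 2 libraries each. Per the labels' protocols and the submitters' processing notes, libraries were made with a KAPA mRNA kit, single-end reads were aligned with STAR 2.6.1a to the mouse genome GRCm38 with Ensembl 91 annotation, and featureCounts with strand setting 2 gave the deposited counts, which are raw counts per gene ID and not normalized. Strand-specific counting keeps antisense reads apart; how reads matching several places were treated is not given in the sources used here.

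Symbols came from GENCODE M21 for 53274 of 53379 IDs; the 105 without a symbol stayed in library totals and tests. Genes were kept with edgeR 4.0.16 filterByExpr (minimum count 10, grouped by line), which left 15890, and were fitted with TMM scaling and glmQLFit over all 8 libraries, with 1 coefficient per line (4 residual degrees of freedom, common dispersion 0.0318). Quasi-likelihood F tests gave the 4 comparisons, their difference and the test over the 4 lines, with Benjamini-Hochberg adjustment over all genes tested. SE is the log2 fold change divided by the square root of F. CPM are counts per 1000000 of the TMM-scaled library size. The script was tested on simulated data. DESeq2 1.42.0, limma 3.58.1 (voom), DESeq2 size factors, library totals, no filter, a replicate block, fits of 2 lines only, scaling to the 85 genes and leaving out each library were alternatives. Intervals from 3 counts cover counting error only. Depth ran from 12442730 to 19149916 counts per library.

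Principal transcripts (APPRIS rank, then the shortest) gave lengths and the 50- and 75-base stretches compared with all annotated transcripts. Promoter windows came from RefSeq (the first window of each gene). Genes named in the text are the paralogues and their parents, the 4 genes with the largest fold change in each direction among those called in each comparison, the 3 highest and 3 lowest per kilobase, a panel of 15 well-known members and, of each list, the 2 called genes with the largest fold change in each comparison within a model, with Myc, Trp53, Mdm2 and Cdkn1a. Other names given (such as Rps25, Rpl27a or Rpl4) complete the lists of calls or were chosen after their values were seen. Some genes that these rules name are not reported here. The members and lists were chosen with earlier results of these data known.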

Additional observations from a re-analysis of the deposited data

Results flagged for a closer look

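For 8 named genes, the difference between 687g and Epcam hi was itself different from that between pB3 and pB2, by the test of (687g minus Epcam hi) minus (pB3 minus pB2) on the log2 scale. For Rpl22l1 the value was 2.50 ± 0.36 (SE; edgeR adjusted p = 9.1e-05), since it was 1.76 higher in 687g than in Epcam hi and -0.74 in pB3 against pB2. For Rpl22 it was -1.35 ± 0.27 (edgeR adjusted p = 0.00138), with 0.14 in the reporter model and 1.50 in the MMTV-PyMT model. For Rpl21 it was 1.67 ± 0.29 (edgeR adjusted p = 0.000386), for Rpl15 1.39 ± 0.32 (edgeR adjusted p = 0.00331) and for Rpl36a 1.34 ± 0.34 (edgeR adjusted p = 0.00684). These 5 held without any 1 library. For Rps21 the value was 1.00 ± 0.28 (edgeR adjusted p = 0.0111), lost without pB3 replicate 2 (adjusted p = 0.0662). For Rps24 it was 0.98 ± 0.31 (edgeR adjusted p = 0.0234), lost without 687g replicate 2 (adjusted p = 0.0803), Epcam hi replicate 1 (0.0656), pB3 replicate 2 (0.103), pB2 replicate 1 (0.0512) or pB2 replicate 2 (0.0747). For Rps4x it was 0.71 ± 0.23 (edgeR adjusted p = 0.0255), lost without Epcam hi replicate 1 (adjusted p = 0.052), pB3 replicate 1 (0.136), pB3 replicate 2 (0.142) or pB2 replicate 1 (0.108).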

How the results depend on the processing

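Of 47 calls of named genes, 23 held under every alternative run, and over 601 values of those calls under alternatives 98 lost the threshold and 0 changed sign. In 687g against Epcam hi, 18 genes were higher and 0 lower; leaving out single libraries gave 13 to 36 higher and 0 to 1 lower, scaling to the 85 genes 10 higher and 4 lower, and no filter or library totals 1 lower each. In 687g against pB3 (2 higher, 2 lower), leaving out libraries gave 1 to 7 higher and 1 to 2 lower, no filter 4 higher, and scaling to the 85 genes 1 lower. In Epcam hi against pB2 (4 higher, 9 lower), leaving out libraries gave 1 to 7 higher and 6 to 17 lower. In pB3 against pB2 (26 higher, 2 lower), leaving out libraries gave 3 to 7 higher and 1 to 2 lower. There, library totals gave 7 higher, DESeq2 size factors 17, a fit of these 2 lines alone 50, and scaling to the 85 genes 2 higher and 7 lower. For the difference between the pairs (7 higher, 1 lower), leaving out libraries gave 4 to 12 higher and 1 to 3 lower, and no filter 2 lower. A fit with 1 library fewer has fewer residual degrees of freedom, and a lone library is assumed to vary like the other lines; causes of the other shifts were not tested. The count over the 4 lines (33) was 22 to 49 without single libraries and 25 to 48 under the others. The share over the 4 lines was past 0.05 under none of the other denominators (exact permutation p from 0.162 to 0.2).

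The labels do not say whether replicate numbers pair the libraries. Correlations of replicate differences between lines ran from -0.21 to 0.235 over all genes and from -0.349 to 0.465 over the ribosomal protein genes. The latter were 0.465 for 687g and pB2, 0.443 for Epcam hi and pB2 and 0.249 for 687g and Epcam hi, and negative for the pairs with pB3. Such correlations cannot show whether libraries were prepared in pairs. With a replicate block, 20 genes were higher in 687g against Epcam hi and 25 in pB3 against pB2, and the difference between the pairs had 2 lower. With the pB2 numbers crossed, chosen after seeing the data because pB3 and pB2 correlated at -0.166, pB3 against pB2 had 27 higher and 2 lower.

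Depth limits the low genes: 3 counts equal 0.159 to 0.222 CPM per library, so Rpl39l, Rpl3l and Rpl10l could not be compared.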
